A study of Rattus norvegicus with 2 samples.

Results

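The 10 genes described here carry the calcium cycle of vascular smooth muscle, from entry across the cell membrane to release from the store, refilling of the store and extrusion. They were chosen by name: every probe set whose only gene symbol on the array platform was Cacna1c, Cacnb3, Itpr1, Itpr2, Itpr3, Atp2a2, Atp2a3, Pln, Atp2b1 or Slc8a1 was taken. All 10 were found, out of 4736 genes named on the array, and 26 probe sets measured them. The RNA came from first and second order branches of the small mesenteric arteries, the muscular vessels that feed the gut, of sham-operated rats and of rats made portal hypertensive before the liver by partial ligation of the portal vein. Each group was 1 pool of total RNA from 20 rats read on 1 Affymetrix RG_U34A array, so each value compares 2 pools, no test is possible and the spread between rats is not measured. The sources used here do not give the strain, the age or the time after the operation.

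Calcium enters smooth muscle cells mainly through the L-type voltage-gated channel, and more is released from the sarcoplasmic reticulum when agonists produce inositol trisphosphate, which opens its receptors there. The rise in calcium activates myosin light chain kinase through calmodulin and makes the artery contract. Pumps of the SERCA type then return calcium to the store, phospholamban restrains these pumps while it is not phosphorylated, and a pump and a sodium-calcium exchanger in the cell membrane move calcium out.

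Levels of most of these mRNAs differed little between the pools, and 0 of the 9 genes bright enough for a value were at least 1.5-fold lower or higher, where 5.04% of all genes with a value were lower by that much and 3.13% higher. The values furthest below 0 were those of Pln and of Itpr2, each 1.39-fold lower in the portal hypertensive pool and each read by a single probe set. The pump genes Atp2a2 and Atp2a3 were 1.06-fold and 1.16-fold lower. The receptor genes Itpr1 and Itpr3 were 1.01-fold and 1.07-fold lower, and Itpr1 came out above 0 in 6 of 10 settings, among them quantile normalization. The probe sets of Slc8a1 disagreed, with 1 of them 1.51-fold lower and another 1.53-fold higher. Cacnb3 was too dim in both pools for a value.

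A gene had a value where at least 1 array was above a floor of 330.9 intensity units, the 40th percentile of both arrays, and its value was the log2 ratio (portal hypertensive over sham), taken as the median of such probe sets. Of the 26 probe sets, 15 were above the floor in both pools and are called measured, 1 was above it in 1 pool only, and 10 were below it in both, with signals from 14 to 316.1. Among the 15 measured ones, 12 had a ratio below 0 and 3 above it, with a median log2 ratio of -0.09. Of all 4960 measured probe sets on the array, 53.1% had a ratio below 0, and the median was -0.02. By gene, 9 of 9 values were below 0, against 53.2% of the 3351 genes with a value, and their median was -0.10. The count of 9 is not firm: it was 7 of 9 after quantile normalization and 5 of 7 with probe sets of shared sequence left out. Of all genes with a value, 48.3% and 51.5% were below 0 under these 2 settings. Cacna1c, Itpr1, Atp2b1 and Slc8a1 each lay above 0 or gave no value under at least 1 setting. At 1.5-fold, the array-wide shares of 5.04% lower and 3.13% higher became 4.14% and 4.5% after quantile normalization, so a count of 0 among 9 genes is near what the array as a whole gives. Ratios of measured probe sets that share a gene had an SD of 0.30 on the log2 scale (1801 probe sets of 789 genes). This scatter within the same 2 arrays is the only measure of error used here. It holds no differences between rats and no error that all probe sets of a gene share.

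**Figure D1:**
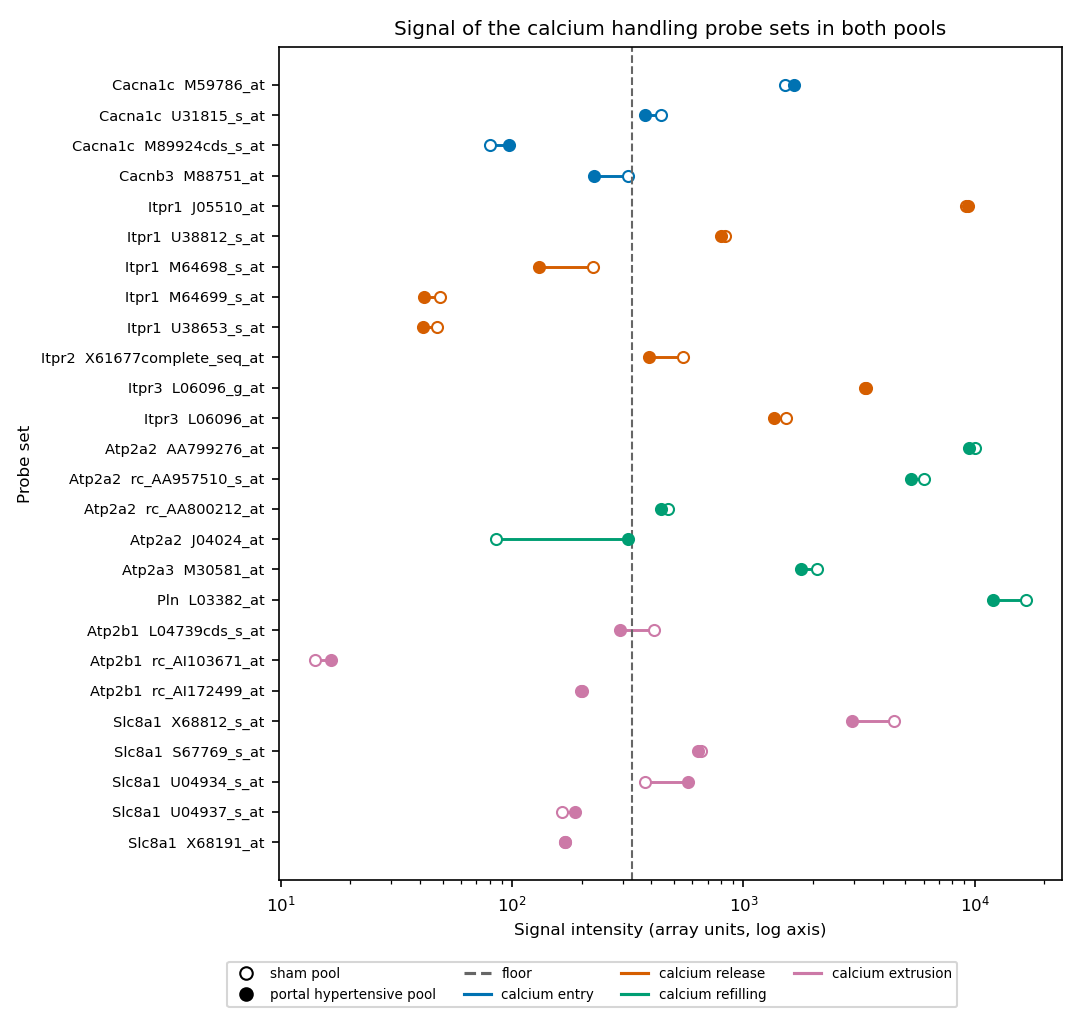
Signal intensity (log axis) of each of the 26 probe sets in the sham pool (open circles) and the portal hypertensive pool (filled circles), coloured by role, with the floor of 330.9 as a dashed line. Right of the floor most pairs of circles lie close together, while Pln, Itpr2 and 1 probe set of Slc8a1 are shifted to lower signal in the portal hypertensive pool, and another probe set of Slc8a1 to higher signal. The widest gap lies below the floor, at 85.3 and 316.1 for J04024_at of Atp2a2, where Itpr1 (224 and 130.7) and Cacnb3 (315.4 and 225.8) are also apart, and Atp2b1 crosses the floor from 412.2 to 291.9.

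For calcium entry the array holds the pore and a regulatory subunit of the L-type channel. Cacna1c, which encodes the pore-forming subunit, gave 1512 in sham and 1651 in portal hypertensive arteries on probe set M59786_at, a log2 ratio of 0.13. Its other measured probe set, U31815_s_at, gave 439.9 and 373.6, a log2 ratio of -0.24, and the third stayed below the floor at 80.5 and 96.5. The measured probe sets thus pointed in opposite directions by less than that SD each, and the gene's value was -0.05. It was 0.13 under 4 of 9 alternative settings, which rest on M59786_at. Cacnb3, the beta subunit that helps bring the channel to the membrane and shapes its gating, gave 315.4 and 225.8, both under the floor, so no ratio is given.

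For release from the store all members of the inositol trisphosphate receptor family were on the array, and Itpr2 had the lowest ratio of them. Itpr2 gave 545.7 in sham and 391.7 in portal hypertensive arteries, a log2 ratio of -0.48. Its signal was close to the floor, in the lowest decile of signal, 496 measured probe sets with mean signals from 336.7 to 502.9. Of these, 9.88% had a ratio as low or lower. Both pools had to be above the floor, which limits how low a ratio can be there. In the next decile, from 503.9 to 675, ratios had an SD of 0.43, against 0.34 in the lowest. With the floor at the 60th percentile, 889.8, Itpr2 had no value. Itpr1, the receptor best known from smooth muscle and from cerebellar neurons, gave 9202 and 9332 on probe set J05510_at and 832.3 and 800.8 on U38812_s_at, log2 ratios of 0.02 and -0.06. Its signals in the pools were nearly equal on both, and its other 3 probe sets lay below the floor, M64698_s_at at 224 and 130.7 and the others at 48.8 or less. Itpr3, whose receptor is common in epithelial and endothelial cells as well, gave 3399 and 3341 on L06096_g_at and 1528 and 1358 on L06096_at, log2 ratios of -0.02 and -0.17. The log2 ratio of Itpr2 was 0.46 below that of Itpr1 and 0.38 below that of Itpr3. These gaps are 1.10 and 0.91 times the SD that the difference of 2 single probe sets would have from probe set scatter. Neither is clearly larger than it. The values of Itpr1 and Itpr3 are medians over 2 probe sets each, so the SD that fits these gaps is smaller, and it was not computed.

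The stretches before the start sites of Itpr1 and Itpr2 are shown because these genes of 1 family had its highest and its lowest ratio. Each is the 250 bases before the RefSeq start in assembly GRCr8, 5′ to 3′ on the gene's strand, from chr4:142743190-142743439 (plus strand) for Itpr1 and chr4:181134868-181135117 (minus strand) for Itpr2. Capitals mark GGGCGG, the GC box bound by Sp1, and CCAAT, on either strand.
Itpr1: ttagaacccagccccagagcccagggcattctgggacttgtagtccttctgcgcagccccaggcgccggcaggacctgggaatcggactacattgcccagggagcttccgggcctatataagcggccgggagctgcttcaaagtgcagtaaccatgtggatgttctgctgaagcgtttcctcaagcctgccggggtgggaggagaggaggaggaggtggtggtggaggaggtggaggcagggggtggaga
Itpr2: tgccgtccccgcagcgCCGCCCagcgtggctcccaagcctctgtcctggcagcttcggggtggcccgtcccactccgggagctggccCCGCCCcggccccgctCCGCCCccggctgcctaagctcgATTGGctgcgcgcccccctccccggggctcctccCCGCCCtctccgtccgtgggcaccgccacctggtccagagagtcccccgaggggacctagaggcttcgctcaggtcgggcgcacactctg
The Itpr2 stretch holds 4 matches to GGGCGG and 1 to CCAAT and is 76% G and C, while the Itpr1 stretch holds neither and is 62% G and C. A match is a description of letters and was not related to the ratios by any test.

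For refilling of the store Pln had a lower ratio than both pump genes. Each gap was smaller than the SD that the difference of 2 single probe sets would have from probe set scatter. That SD is too wide for the gap to Atp2a2, whose value is a median over 3 probe sets. Pln, which encodes phospholamban, gave 16709 in sham and 12004 in portal hypertensive arteries, a log2 ratio of -0.48. Ratios at that signal scatter less, with an SD of 0.27 over the 496 measured probe sets with mean signals from 6523 to 16190, and 4.03% of these were as low or lower. Over all measured probe sets, 8.87% had a lower ratio than Pln. Its ratio stayed between -0.48 and -0.46 over the main setting and all 9 alternatives. Only quantile normalization, median centring and the loess trend could move it, as Pln has 1 bright probe set without a shared sequence.

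Atp2a2, the gene of the main store pump of muscle, SERCA2, had 3 measured probe sets that were all slightly lower in the portal hypertensive pool. They gave 9992 and 9393 on AA799276_at, 6048 and 5289 on rc_AA957510_s_at, and 469.4 and 442.1 on rc_AA800212_at, with log2 ratios of -0.09, -0.19 and -0.09. The 3 ratios lay closer together than the SD of 0.30. On the remaining one, J04024_at, both signals were under the floor, at 85.3 and 316.1. Atp2a3, the gene of SERCA3, a pump common in endothelial and blood cells, gave 2069 and 1778, a log2 ratio of -0.22. The log2 ratio of Pln was 0.39 below that of Atp2a2, so the signal of Pln relative to that of Atp2a2 in the portal hypertensive pool was 0.76 times what it was in the sham pool. This gap is 0.93 times the SD expected for 2 single probe sets. With Atp2a2 read as a median over 3 probe sets, the SD that fits this gap is smaller, and it was not computed. The ratio of Pln was 0.26 below that of Atp2a3, which has 1 probe set, or 0.62 times the SD for 2 single probe sets. Neither gap says anything of protein or of phosphorylation.

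Pln and Atp2a2 also differ in the sequence before their start sites, and both stretches are printed because they belong to the pump and its inhibitor. They lie at chr20:33172244-33172493 (plus strand) for Pln and chr12:39733269-39733518 (plus strand) for Atp2a2 in GRCr8, with the same marks.
Pln: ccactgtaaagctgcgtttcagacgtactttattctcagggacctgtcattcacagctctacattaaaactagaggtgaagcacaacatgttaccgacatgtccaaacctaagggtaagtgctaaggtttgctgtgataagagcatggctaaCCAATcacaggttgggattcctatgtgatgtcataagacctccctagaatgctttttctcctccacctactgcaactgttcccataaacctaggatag
Atp2a2: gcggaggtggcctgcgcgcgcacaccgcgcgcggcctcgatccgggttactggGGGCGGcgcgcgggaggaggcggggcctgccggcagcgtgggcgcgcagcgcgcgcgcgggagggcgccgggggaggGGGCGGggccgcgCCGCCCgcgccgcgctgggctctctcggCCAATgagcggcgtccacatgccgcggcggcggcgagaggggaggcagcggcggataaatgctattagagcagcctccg
The Pln stretch is 44% G and C, with 1 CCAAT and 0 GGGCGG. That of Atp2a2 is 80% G and C, with 3 matches to GGGCGG and 1 to CCAAT. All 10 genes matched a RefSeq entry, and 8 of them were above the median of 51.2% G and C over 33465 rat promoters. GGGCGG was in 6 of 10 and in 30.5% of all promoters, CCAAT in 6 of 10 and in 34% of all. TATAAA was in 0 of 10 and in 12.9% of all, and the CArG box of serum response factor, a sequence known from smooth muscle genes, in 0 of 10 and in 1.5% of all. Besides Pln, Slc8a1 was the gene below the median, with 35.2%.

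For extrusion the readings were weak or disagreed. Slc8a1, which encodes the sodium-calcium exchanger NCX1, gave 4469 in sham and 2955 in portal hypertensive arteries on X68812_s_at, a log2 ratio of -0.60. On S67769_s_at it gave 652.2 and 633.5, a log2 ratio of -0.04, and on U04934_s_at, close to the floor in the sham pool, 376.9 and 577.3, a log2 ratio of 0.62. So 1 probe set was 1.51-fold lower, another 1.53-fold higher and the third nearly equal, and the other 2 were below the floor at 163.9 and 186.1 and at 169.3 and 168.8. At this threshold 5.38% of all measured probe sets were lower and 3.1% higher. The value of the gene was -0.04 as a median and 0.03 after quantile normalization, and it became -0.60 with the floor at the 60th percentile or with the probe set of highest signal taken alone, so its direction was not settled. All 3 measured probe sets have names ending in _s_at, which marks probes that can match more than 1 transcript. Atp2b1, the gene of the calcium pump of the cell membrane, PMCA1, was above the floor in the sham pool only, with 412.2 and 291.9 on L04739cds_s_at, which makes it at least 1.25-fold lower against the floor. Its other probe sets gave 197.9 and 200.1, and 14 and 16.5, both under the floor, and without a floor the value of the gene was 0.02.

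**Figure D2:**
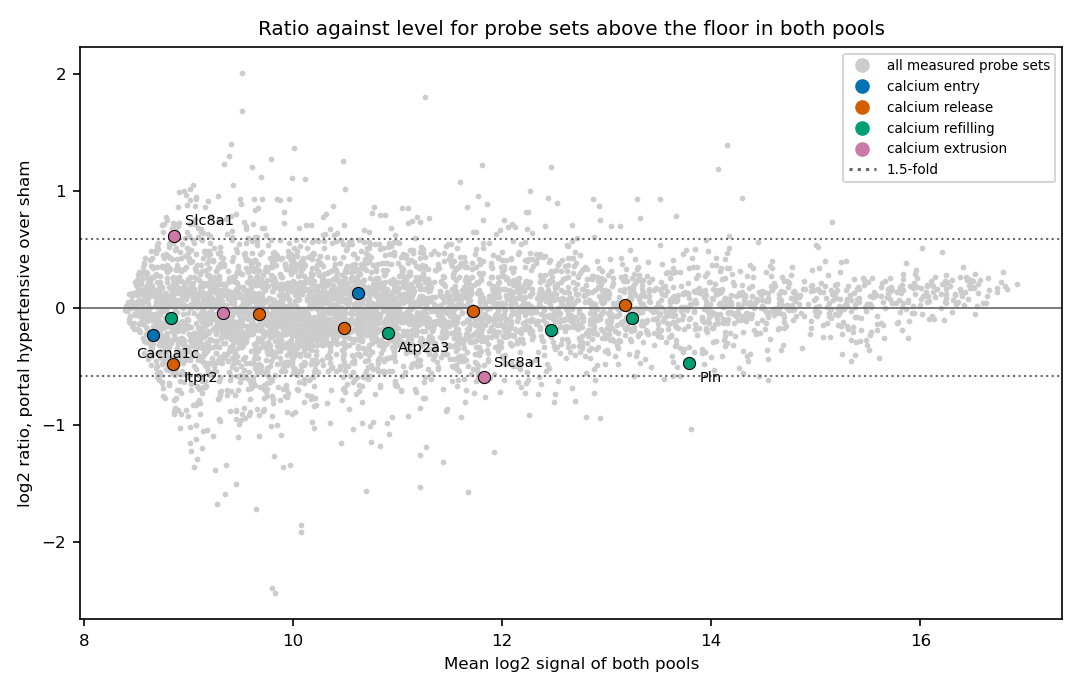
log2 ratio of portal hypertensive over sham against the mean log2 signal for the 4960 probe sets above the floor in both pools (grey), with the 15 measured calcium handling probe sets coloured by role and dotted lines at 1.5-fold. The spread of all probe sets narrows toward high signal, where Pln lies low at a ratio of -0.48, and 2 Slc8a1 probe sets lie just past the dotted lines on opposite sides.

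**Figure D3:**
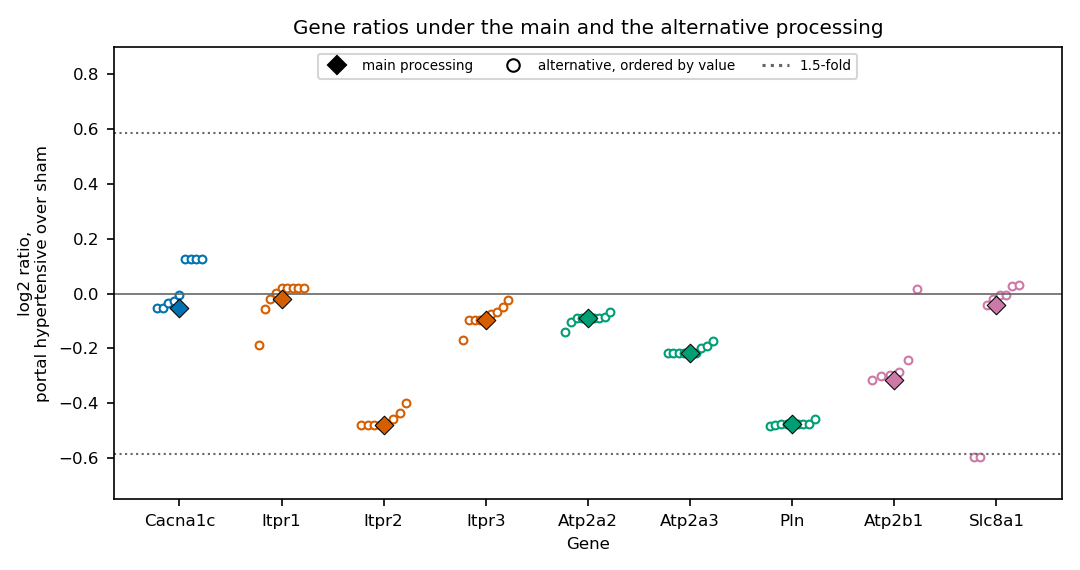
log2 ratio of each gene with a value under the main processing (diamonds) and under the alternatives that give one (open circles, ordered by value), with dotted lines at 1.5-fold. Pln and Itpr2 stay between -0.48 and -0.40, Cacna1c, Itpr1, Atp2b1 and Slc8a1 have circles on both sides of 0, and 2 circles of Slc8a1 lie at -0.60. Pln and Itpr2 have 1 probe set each, which a choice among probe sets cannot move.

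Other genes of the calcium cycle were read from lists of 114 genes in all, of which 75 were on the array and 59 had a value. Of these, 40 were below 0, 2 were at least 1.5-fold lower and 0 at least 1.5-fold higher, with a median log2 ratio of -0.11. Over all genes with a value 53.2% were below 0, 5.04% were lower by that much, 3.13% were higher, and the median was -0.02. The 2 were both entry channels. Trpc4, a cation channel subunit that takes part in calcium entry after receptor activation, gave 986.5 in sham and 376.5 in portal hypertensive arteries on its single probe set, 2.62-fold lower. Its signal in the portal hypertensive pool was close to the floor, and with the floor at the 60th percentile its log2 ratio of -1.39 was bounded to -0.15. Cacna1a, the pore of the P/Q-type channel, gave 1820 and 1125 on 1 probe set with a shared sequence, a log2 ratio of -0.69, while 3 more probe sets of the gene did not reach the floor. It was no longer 1.5-fold lower with the floor at the 20th percentile, at -0.29, or with no floor, at -0.45, and it had no value with shared probe sets left out.

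The other 10 entry channel genes with a value stayed within 1.5-fold, and the list of 12 had a median of -0.15 with 8 below 0. P2rx1, the ATP-gated channel through which sympathetic nerves excite arteries, gave 21139 and 16985, a log2 ratio of -0.32, and Cacna2d1, an accessory subunit of voltage-gated channels, 1889 and 2199, a log2 ratio of 0.22. Among release channels and their partners, 3 of 6 genes were below 0 and the median was 0.04, or -0.08 over measured probe sets only. Fkbp1a, a binding partner of ryanodine receptors, had -0.05 over 4 probe sets, and Sri, the gene of sorcin, which also binds these receptors, had 0.23. The ryanodine receptor gene Ryr2 lay below the floor in both pools, at 236.8 and 144.1.

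Among store pumps, pump partners and calcium-binding proteins of the store, 7 of 11 genes were below 0 and the median was -0.10. Canx, a lectin chaperone that binds calcium, had -0.10 over 5 probe sets ranging from -0.50 to 0.34, and Calu, a calcium-binding protein of the secretory pathway, had 0.16. The calsequestrin genes, whose proteins hold calcium inside the muscle store, were lower: Casq2 gave 4528 and 3500, a log2 ratio of -0.37, and Casq1 gave 1787 and 1312, a log2 ratio of -0.45. Both were picked after their values were seen. Of 6 other extrusion genes, 5 were below 0, with a median of -0.30, but 3 of the 6 were above the floor in 1 pool only. Slc8a2, another sodium-calcium exchanger gene, gave 1054 and 852.2, a log2 ratio of -0.31, and Atp1b1, the beta subunit of the sodium pump that sets the sodium gradient for the exchangers, had -0.04 and -0.81 on its 2 measured probe sets.

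Genes on either side of the calcium signal had medians near 0, with single genes further away. Of 11 genes for calmodulin and its effectors 9 were below 0, with a median of -0.07 and values from -0.45 to 0.43. Calm2, a calmodulin gene, had -0.04 and Ppp3ca, the catalytic subunit of calcineurin, -0.27. Of 13 genes that make or remove inositol trisphosphate 8 were below 0, with a median of -0.11 and values from -0.33 to 0.30. Impa1, an inositol monophosphatase gene, had 0.19 and Pitpna, a phosphatidylinositol transfer protein gene, -0.22. No gene with a value on either list reached 1.5-fold under the main setting.

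**Figure D4:**
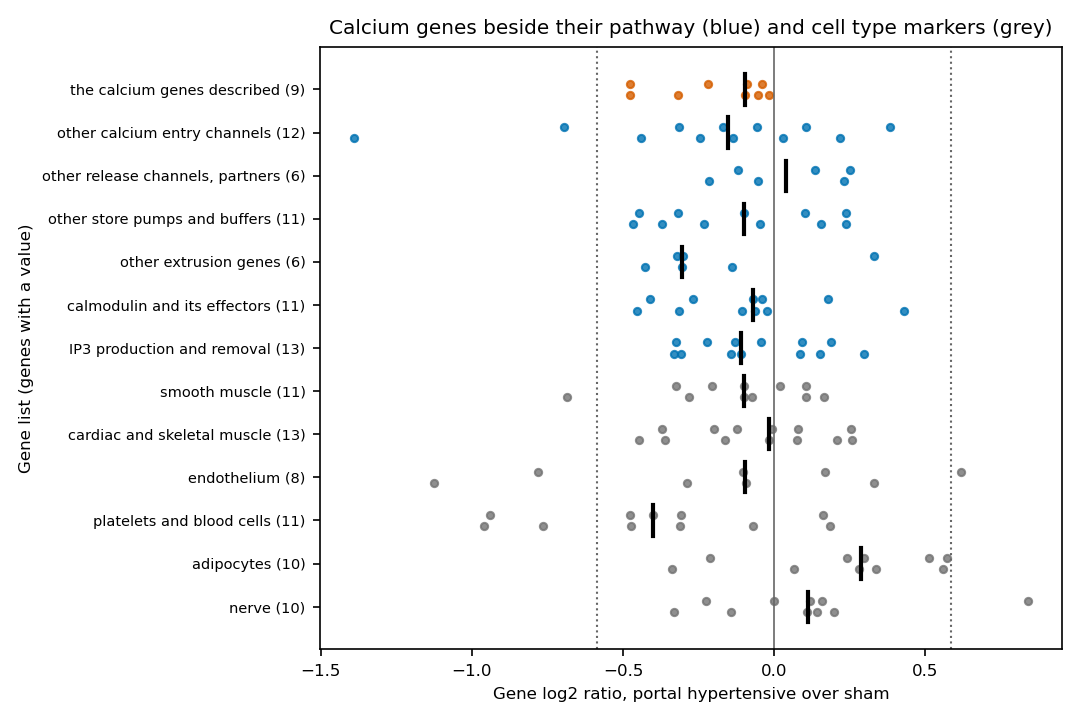
log2 ratio of portal hypertensive over sham of each gene with a value (points) and the median (black bars) for the calcium genes described (orange), lists of their pathway (blue) and cell type markers (grey), with dotted lines at 1.5-fold. The calcium genes, with a median of -0.10, lie within the range of the smooth muscle markers, whose low end is Kcnmb1 alone at -0.68. Pln and Itpr2, at -0.48, lie below the next lowest of these markers, Acta2 at -0.32. The smooth muscle median is also -0.10 (0.02 with shared probe sets left out, where some markers have no value). Adipocyte markers lie mostly above 0, with a median of 0.29.

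Markers of the cell types in the vessel wall did not all differ alike. Over all genes with a value, 53.2% were below 0. All 11 smooth muscle markers on the array were above the floor, and 7 of them were below 0, with a median log2 ratio of -0.10. The median came to 0.02 with shared probe sets left out, where Acta2, Myh11, Cnn1 and Cald1 have no value. Tpm1 then rests on X02412_at alone, at -0.93. The marker ratios ranged from -0.68 (Kcnmb1) to 0.17 (Tagln), and the marker signals summed to 953589 in sham and 939730 in portal hypertensive arteries. Kcnmb1 was the only smooth muscle marker at least 1.5-fold lower, against 5.04% of all genes with a value, and its probe sets gave -1.04 and -0.33. Pln and Itpr2, at -0.48, lay below all of these markers but Kcnmb1. Acta2, smooth muscle actin, had -0.32, Myh11, smooth muscle myosin, had -0.10, and Actg2 and Myl9 each had 0.10. In bulk RNA, fewer smooth muscle cells and less of an mRNA per cell cannot be told apart. Pln, Atp2a2 and Casq2 are also genes of heart muscle and Casq1 of skeletal muscle, and Casq1 is itself on the list of heart and skeletal muscle markers. Of the 23 such markers on the array, 10 lay below the floor on all their probe sets, among them Actc1, Myh7, Myl3 and Nppa. Another 9 had a probe set above it in both pools, namely Myh1, Myh3, Acta1, Casq1, Ckm, Myl1, Tnni3, Tnnt3 and Myl2. The brightest of these were Myh1, at 4209 and 4155, Myh3, at 3427 and 3148, and Acta1, at 2504 and 2183. The 13 with a value had a median of -0.02, or 0.01 after quantile normalization, and their summed signals were 18862 and 18306. Adipocyte markers were above 0 in 8 of 10 genes, with a median of 0.29 and summed signals of 106586 and 128894, while Plin1 and Ucp1 lay below the floor. Of the 8 endothelial markers with a value, 2 were at least 1.5-fold lower, Icam2 (-1.13) and Nos3 (-0.78). Edn1 (0.62) was higher by that much. Over all genes with a value, 5.04% were lower and 3.13% higher. The measured probe sets of Nos3 ranged from -1.20 to 0.25, and the count of 2 became 1 with shared probe sets left out. The median over the 8 genes was -0.10, or 0.16 if the floor is set at the 20th percentile. Their summed signals were 16767 and 16382, and 3 of 11, Kdr, Sele and Vwf, lay below the floor. Markers of nerve had a median of 0.11 over 10 genes, or near 0 with the floor at the 20th percentile. Their summed signals were 72300 and 73292, with 5 of 15 below the floor. Of the 10, 1 was at least 1.5-fold higher, against 3.13% of all genes with a value. This was Prph, at 255.5 and 592.4, above the floor in the portal hypertensive pool only and at least 1.79-fold higher. The count became 0 over measured probe sets only. Markers of platelets and blood cells were below 0 in 9 of 11 genes, against 53.2% of all genes with a value. Of the 11, 3 (Cd8b, Cd3d and Cd79b) were at least 1.5-fold lower, against 5.04% of all genes with a value. Cd3d and Cd79b were above the floor in the sham pool only. The count of 3 became 1 over measured probe sets only and 0 under a 60th percentile floor. The median of these markers was -0.40, or -0.19 under that higher floor. Their summed signals were 185065 and 185156, and 1 of 12, Cd8a, lay below the floor. Most of these sums came from Hbb (107955 and 122616), Alas2 (48684 and 36878) and Pf4 (20604 and 19614). The sums therefore say little of the lymphocyte markers. The part of these cells in the calcium gene ratios was not tested.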

How the data were processed

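Total RNA of small mesenteric arteries was pooled over 20 rats a group and read on 1 RG_U34A array each, per the labels and file headers. The values the authors deposited are linear intensities, 1 for each probe set in each pool; how they were scaled and background-corrected, and with what software, the sources used here do not say. The file headers note, with a question mark, 17 µg of cRNA and fluidics module 2 for the sham array and 12.5 µg and module 1 for the other, which cannot be told apart from the operation. No other kind of deposited value was used.

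Values were used as deposited. The 59 control probe sets were left out, values below the floor (40th percentile, 330.9) were set to it, and log2 ratios were taken (Python 3.11.15, pandas 2.3.3). Probe sets with 1 platform symbol (7018) were named; 308 had several and 1473 none. The code was tested on simulated data. Alternatives were quantile normalization, median centring, a loess trend removed (statsmodels 0.14.6), floors at the 20th and 60th percentile, no floor with a pseudocount of 1, the probe set of highest level, measured probe sets only and shared probe sets left out. Named were all 10 genes and, of each pathway list, genes at least 1.5-fold apart with a measured probe set and the 2 of highest level. The genes and lists were chosen with earlier results of these data known. The array's build is not given, so coordinates are those of RefSeq promoters in GRCr8.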

Additional observations from a re-analysis of the deposited data

How the results depend on the processing

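The number of calcium handling genes at least 1.5-fold lower was 0 under the main setting and under 7 of 9 alternatives. It was 1, Slc8a1, with the floor at the 60th percentile or with the probe set of highest level. Of all genes with a value, 2.75% and 5.46% were lower by that much under these 2 settings. The number with a ratio below 0 was 5 (of 7 genes with a value) with shared probe sets left out. It was likewise 5 of 7 with the highest floor (60th percentile), where fewer genes have a value. Over all genes with a value, 51.5% and 52.2% were below 0 under these settings. The median log2 ratio over the genes ranged from -0.22 to -0.08. Pln, Itpr2, Itpr3, Atp2a2 and Atp2a3 were below 0 in every setting that gave a value. Pln, Itpr2 and Atp2a3 have 1 probe set each, so settings that choose among probe sets could not change their values. No paired analysis was possible because each group is 1 array, and no replicate could be left out. The number of arrays limits the precision, and signals near the floor bear no small ratio.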

Other observations

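Calcineurin, the phosphatase that calcium and calmodulin activate, had more than 1 subunit gene on the array. Ppp3r1, its regulatory subunit gene, gave 1175 in sham and 914.5 in portal hypertensive arteries on D14425_s_at and 592.1 and 490.9 on D14568_at, with log2 ratios of -0.36 and -0.27, close to the -0.27 of Ppp3ca. Ppp3cb, another catalytic subunit gene, was above the floor in the sham pool only, at 336.2 against 277. Of 6 genes with a value for calmodulin-dependent kinases and the kinases that activate them, 5 were below 0, with Camk1 at -0.45, Camk2b at -0.41, Camk2g at -0.11, Camk2d at -0.07 and Camkk2 at -0.06, while Camkk1 had 0.43. These genes were chosen once their values had been seen, and the value of none was 1.5-fold apart. Over all genes with a value, 53.2% were below 0. For Camk2d, L13407_i_at was above the floor in the sham pool only (624.5 and 314.7), at least 1.89-fold lower. Its measured probe sets lay between -0.22 and 0.07.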
